A study of Mus musculus with 27 samples.

Results

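Hippo pathway genes and target genes of its effector YAP were followed on 27 arrays of 3T3-L1 adipocytes, a mouse preadipocyte line turned into fat cells in culture. The set held 10 genes of the 18781 measured: the matricellular genes Ccn1, Ccn2, Ccn4 and Ccn5, the angiomotins Amot, Amotl1 and Amotl2, the target gene Ankrd1 and the kinases Lats1 and Lats2. Members were chosen by symbol, from probe sets annotated to that symbol alone. Where a gene has several such sets the one with the highest mean level over the arrays is taken, but each of the 10 members had 1 probe set, so no measured level decided which set was used. Earlier results of these arrays, in which Ccn1 and Amotl2 appear, were known when the genes were listed, so their changes are a description and not independent evidence.

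The cells were mature adipocytes, differentiated with dexamethasone, insulin and isobutylmethylxanthine and then kept without them. The 9 groups of 3 arrays were untreated cells at time 0 and cells exposed to 1 µM rosiglitazone, an agonist of the fat cell nuclear receptor PPARγ, for 30 min, 1 h, 2 h, 6 h, 12 h, 24 h, 36 h or 48 h. The untreated cells were the only control used here: the design text mentions DMSO, the solvent of the drug, but no sample used here carries that label, so effects of the drug, the solvent and the time in culture cannot be told apart. The labels do not say whether the 3 arrays of a group came from separate cultures, so the p-values measure only the spread between arrays, which may be technical.

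All values are log2 intensities of a probe set, and a difference is a log2 fold change with its SE after the ± sign, from groups of 3 arrays (n = 3). "Rose" and "fell" are used where limma's p-value, adjusted by Benjamini-Hochberg over all 18781 genes, was below 0.05. Array medians lay between 4.02 and 4.13. The 12 adipocyte markers averaged 10.84 in untreated cells, with Adipoq at 11.91, Fabp4 at 11.45 and Plin1 at 11.56 but Lep at 5.61. The 11 markers of preadipocytes and fibroblasts averaged 8.92 in the same cells, from Vim at 11.70 to Cd34 at 3.04. The probe sets of macrophage and endothelial markers averaged 3.52 and 3.17 there. RNA came from whole cultures, so fewer cells of a kind and less RNA per cell cannot be told apart.

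The Hippo pathway is a kinase cascade that restrains growth in response to cell contact, cell shape and the tension of the actin skeleton. MST kinases activate LATS1 and LATS2, which phosphorylate YAP and its relative TAZ and keep them out of the nucleus. Unphosphorylated YAP and TAZ enter the nucleus and bind TEAD factors at genes such as Ccn1, Ccn2, Ankrd1 and Amotl2. Angiomotins bind YAP and LATS kinases at junctions and actin, so Amotl2 is both a target and a restraint of YAP. In fat cell precursors, TAZ is known to bind PPARγ and hold back its activity.

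Promoters of 3 members are shown because each holds the TEAD core motif while their RNA took different courses: that of Ccn1 fell, that of Amotl2 rose and that of Ankrd1 stayed dim with no called change. The sequences are from RefSeq on build GRCm38.p6, 5′ to 3′ on the gene's strand, from 250 bases before to 50 after the transcription start. They lie at chr3:145649936-145650235 on the minus strand for Ccn1, chr9:102717554-102717853 on the plus strand for Amotl2 and chr19:36119795-36120094 on the minus strand for Ankrd1. Capitals mark GGAATG or its reverse complement CATTCC.
Ccn1: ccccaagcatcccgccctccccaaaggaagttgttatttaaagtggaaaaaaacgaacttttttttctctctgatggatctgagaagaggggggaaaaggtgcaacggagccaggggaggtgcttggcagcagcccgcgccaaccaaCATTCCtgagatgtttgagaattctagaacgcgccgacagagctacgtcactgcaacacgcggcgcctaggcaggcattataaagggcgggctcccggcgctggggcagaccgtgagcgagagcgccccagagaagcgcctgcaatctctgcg
Amotl2: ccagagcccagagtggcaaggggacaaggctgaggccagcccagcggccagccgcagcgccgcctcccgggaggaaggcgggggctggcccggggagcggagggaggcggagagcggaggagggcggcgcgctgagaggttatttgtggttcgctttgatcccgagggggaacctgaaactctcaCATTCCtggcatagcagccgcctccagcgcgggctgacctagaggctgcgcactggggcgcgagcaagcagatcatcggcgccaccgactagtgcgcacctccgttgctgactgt
Ankrd1: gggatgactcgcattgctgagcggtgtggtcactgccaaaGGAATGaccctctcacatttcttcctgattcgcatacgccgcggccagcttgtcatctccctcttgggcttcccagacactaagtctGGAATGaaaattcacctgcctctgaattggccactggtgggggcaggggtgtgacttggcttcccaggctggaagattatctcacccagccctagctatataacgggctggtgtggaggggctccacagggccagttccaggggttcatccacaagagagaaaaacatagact

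The Ccn1 promoter holds CATTCC starting 103 bases before the start and a TATAAA box 25 bases before it. In Amotl2 the motif CATTCC stands 65 bases before the start. Ankrd1 has GGAATG at both 210 and 123 bases before the start. Among the 5 other promoters found for members, 1 of the 2 of Lats2 has GGAATG starting at base 5 of the transcript, and those of Amot, Amotl1 and Lats1 have none. RefSeq promoters were matched for 7 of the 10 members; Ccn2, Ccn4 and Ccn5 were not matched. The motif GGAATG, on either strand, occurs in 14.7% of all 32851 promoters of the same length, and TATAAA on the gene's strand in 8.32%. None of the 8 member promoters holds TGANTCA, the AP-1 motif (7.81% of all promoters on either strand), a CArG box, the site of serum response factor (1.63%), or a direct repeat of AGGTCA spaced by 1 base, the PPAR-RXR site (0.0396%). These are matches of letters in short windows, which say nothing of binding, and no 2 of the matches overlap.

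Over the whole course, 5 of the 10 members changed by limma's F-test over the 8 comparisons with untreated cells, namely Ccn1, Ccn2, Ccn4, Amotl1 and Amotl2, beside 40.5% of all genes. The calls of Ccn2 and Amotl1 were less secure: Ccn2 had an adjusted p of 0.0262 by limma, which became 0.0508 with replicate number as a block, 0.0696 with arrays centred, 0.0597 with quantile normalization, 0.514 without replicate 2, and between 0.0573 and 0.0788 without any 1 of 4 arrays (untreated replicates 1 and 2, 12 h replicates 1 and 2). Amotl1 had 0.00503, which became 0.13 without replicate 2 and 0.0915 without replicate 1. Ccn5, Amot, Ankrd1, Lats1 and Lats2 were not called. The share called among the members was close to that among all genes, so the set is described gene by gene.

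At 30 min and 1 h the member called was Amotl2 alone, beside 0.0479% of all genes at 30 min and 0.99% at 1 h. At 2 h, 6 h and 24 h Amotl2 was higher and Ccn1 and Ccn4 lower, 3 of 10 members against 5.91%, 16.6% and 20.7% of all genes in turn. At 12 h Ccn2 was also lower, 4 of 10 against 18.9%. At 36 h Ccn1, Ccn2 and Ccn4 were lower, 3 of 10 against 21.4%, and at 48 h Amotl2 was higher and Ccn1 and Ccn4 lower, 3 of 10 against 24%. The 8 comparisons share the untreated arrays, so a high or low value there enters all of them. The median change of the 10 members lay between -0.13 at 6 h and 0.11 at 30 min, while the medians of all genes were -0.0080 and 0.0053.

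**Figure D1:**
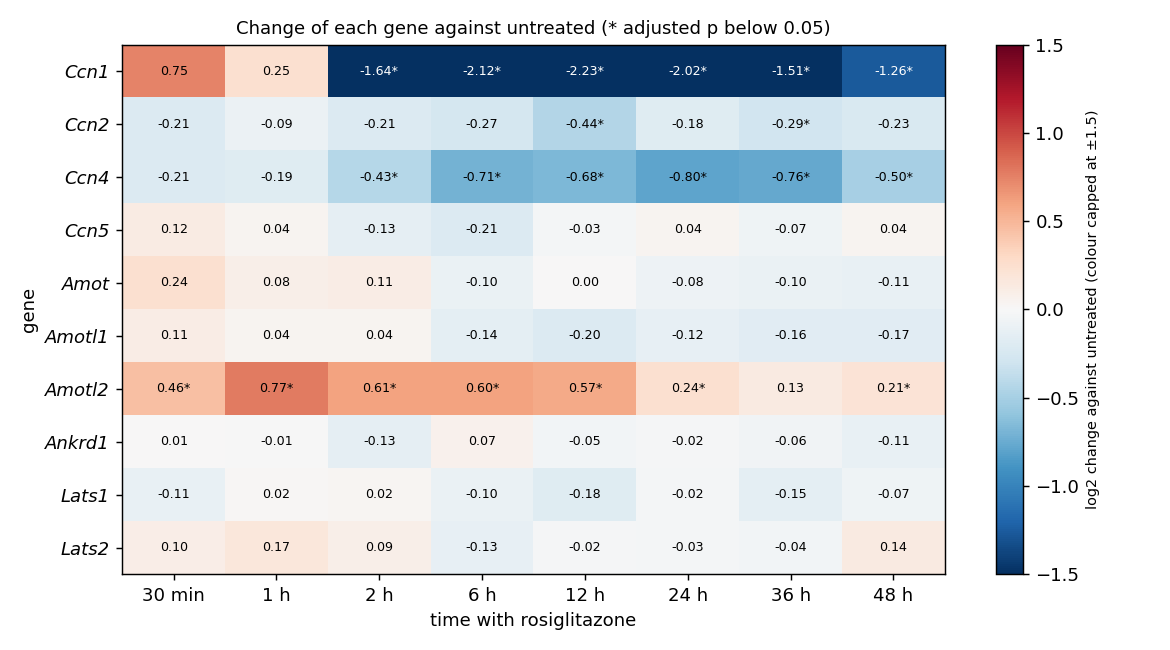
Log2 fold change against untreated cells of the 10 members (rows) at the 8 exposure times (columns), from limma with n = 3 arrays a group. Ccn1 goes from 0.75 at 30 min to -2.23 at 12 h, Ccn4 is negative throughout, Amotl2 is positive throughout, and the other rows stay within 0.44 of 0. Asterisks mark adjusted p below 0.05, and colour is capped at a change of 1.5.

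Ccn1, formerly Cyr61, encodes a secreted matrix-bound ligand of integrins and is among the most used reporters of YAP activity. Its level had the widest range of group means of all members, from 8.66 at 30 min to 5.69 at 12 h, a 7.87-fold span. The 3 untreated arrays read 7.66, 8.05 and 8.04. At 30 min they read 9.10, 8.78 and 8.11, all above the untreated arrays, a difference of 0.75 ± 0.25 that was not called (adjusted p = 0.464, limma). At 1 h the values were 8.41, 8.41 and 7.67, overlapping untreated, with a difference of 0.25 that turned to -0.0065 without replicate 1.

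By 2 h every array had moved below the untreated range. The 3 arrays at 2 h read 6.25, 6.16 and 6.42, a fall of 3.11-fold (-1.64 ± 0.25, adjusted p = 7.96e-05, limma). At 6 h they read 5.69, 5.86 and 5.85, and at 12 h 5.51, 5.61 and 5.93. The 12 h value was the lowest of the course, 4.69-fold below untreated (-2.23 ± 0.25, adjusted p = 4.02e-07, limma). The 2 h and 6 h arrays did not overlap each other, but the difference of -0.48 was not called (adjusted p = 0.275, limma), except in a fit of the compared arrays alone (adjusted p = 0.00573).

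The later arrays climbed part of the way back. Ccn1 read 5.70, 5.81 and 6.18 at 24 h, 6.05, 6.78 and 6.38 at 36 h, and 7.09, 5.98 and 6.88 at 48 h. All 3 values at each time were below untreated, with falls of 4.05-fold at 24 h, 2.85-fold at 36 h and 2.40-fold at 48 h. The 48 h fall of -1.26 ± 0.25 had an adjusted p of 0.000391 by limma, but -0.86 with an adjusted p of 0.0524 without replicate 2 of every group. Replicate 2 at 48 h, at 5.98, stood well below the other 48 h arrays, and the SD of 0.59 there was the highest of any group for any member.

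Steps between treated times do not use the untreated arrays. From 30 min to 2 h Ccn1 fell 5.22-fold (-2.38 ± 0.25, adjusted p = 8.62e-07, limma), the 1 member called of 10, against 5.16% of all genes. From 6 h to 48 h it rose 1.81-fold (0.85 ± 0.25, adjusted p = 0.0155, limma), with all 3 arrays higher. That call was lost without replicate 1 of every group (adjusted p = 0.188) or replicate 3 (adjusted p = 0.0885), and without any 1 of 3 arrays: 6 h replicate 1 and 48 h replicates 1 and 3 (adjusted p from 0.0562 to 0.104). From 24 h to 48 h the difference of 0.75 was not called (adjusted p = 0.126, limma), though it was without 48 h replicate 2 (1.09, adjusted p = 0.0246).

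Ccn4, formerly Wisp1, is a secreted protein of the same family first found as a Wnt-induced gene. The untreated arrays agreed closely at 5.61, 5.65 and 5.60. They were followed by 5.47, 5.44 and 5.33 at 30 min and 5.50, 5.34 and 5.46 at 1 h, below all untreated arrays but not called. From 2 h it was lower at every time. It read 5.24, 5.31 and 5.01 at 2 h (-0.43 ± 0.10, adjusted p = 0.00544, limma), a call that did not hold without replicate 1 (adjusted p = 0.0552), without replicate 2 (adjusted p = 0.0612) or without the single array 2 h replicate 3 (adjusted p = 0.0615).

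The lowest group mean of Ccn4 came at 24 h. The arrays read 4.78, 4.79 and 5.16 at 6 h, 4.93, 4.86 and 4.68 at 24 h, and 5.17, 5.11 and 5.08 at 48 h. The fall was 1.64-fold at 6 h and 1.74-fold at 24 h (-0.80 ± 0.10, adjusted p = 8.01e-07, limma), and 1.42-fold at 48 h (-0.50, adjusted p = 0.000303). The 3 arrays at 48 h lay above all 3 at 24 h, but that difference of 0.29 was not called (adjusted p = 0.122, limma). Ccn4 at 12 h and 36 h was likewise lower, by -0.68 and -0.76. The step from 2 h to 6 h, not called, was called among genes above the median mean (-0.28, adjusted p = 0.0378, limma). Without replicate 3 of every group it was called too (-0.49, adjusted p = 0.00526), as it was without 2 h or 6 h replicate 3 singly. From 6 h to 48 h the difference was called only without replicate 3 (0.36, adjusted p = 0.0148) or without 6 h replicate 3 (0.34, adjusted p = 0.0149).

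Ccn2, formerly Ctgf, encodes a matrix protein that promotes fibrosis and is the other widely used reporter of YAP. Its probe set was dim, with a mean of 3.74 where the median gene mean was 4.76. Untreated arrays read 3.95, 4.06 and 3.84. At 12 h they read 3.50, 3.47 and 3.56, the lowest group, all below untreated, and the fall was 1.36-fold (-0.44 ± 0.10, adjusted p = 0.00147, limma), a call that did not hold when replicate 2 was left out throughout (adjusted p = 0.11). At 36 h the values of 3.85, 3.58 and 3.56 overlapped untreated, and the fall of -0.29 (adjusted p = 0.0308, limma) was lost under both other scalings (adjusted p = 0.111 centred and 0.072 quantile normalised), in a fit of the compared arrays alone (adjusted p = 0.091), without replicate 2 or 3 of every group, and without any 1 of 4 arrays: untreated replicates 1 and 2 and 36 h replicates 2 and 3. At 48 h the arrays spread from 3.44 to 3.95, a spread wider than the 0.44 between the highest and lowest group means. The differences at the remaining times ran from -0.27 at 6 h to -0.09 at 1 h, none called. The 6 h difference (adjusted p = 0.056, limma) was called in a fit of the compared arrays alone (adjusted p = 0.0375), when replicate 3 was left out throughout (-0.37, adjusted p = 0.0443) and without any 1 of 4 arrays: untreated replicate 3, 36 h replicate 1, and 48 h replicates 1 and 3. That at 48 h, -0.23 with an adjusted p of 0.0868, was called when replicate 3 was left out throughout (-0.40, adjusted p = 0.0189) or at 48 h only (-0.34, adjusted p = 0.0111).

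Ccn5, formerly Wisp2, lacks the heparin-binding tail of its relatives, is secreted by fat cell precursors and is known to restrain their commitment. Its group means stayed between 7.08 at 6 h and 7.42 at 30 min. The step from 6 h to 24 h was called only without replicate 1 of every group (0.40, adjusted p = 0.0287, limma) or without 24 h replicate 1 (0.37, adjusted p = 0.0468). The difference from untreated of greatest size was -0.21 ± 0.11 at 6 h (95% interval -0.44 to 0.02, adjusted p = 0.231, limma), where the arrays at 7.15, 7.13 and 6.97 lay below the untreated 7.40, 7.28 and 7.20. Of the remaining family, Ccn3 fell by 0.58 ± 0.13 at 48 h (adjusted p = 0.00108, limma) and was also lower at 12 h, 24 h and 36 h, and Ccn6 was not called at any time, with -0.04 at 48 h. Of the 6 CCN genes, Ccn1, Ccn3 and Ccn4 were called lower at both 24 h and 48 h, beside 10.5% and 11.4% of all genes. The Ccn3 probe set was dim, at 3.59 untreated, 3.11 at 24 h and 3.01 at 48 h. The 25th percentile of gene means was 3.04.

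**Figure D2:**
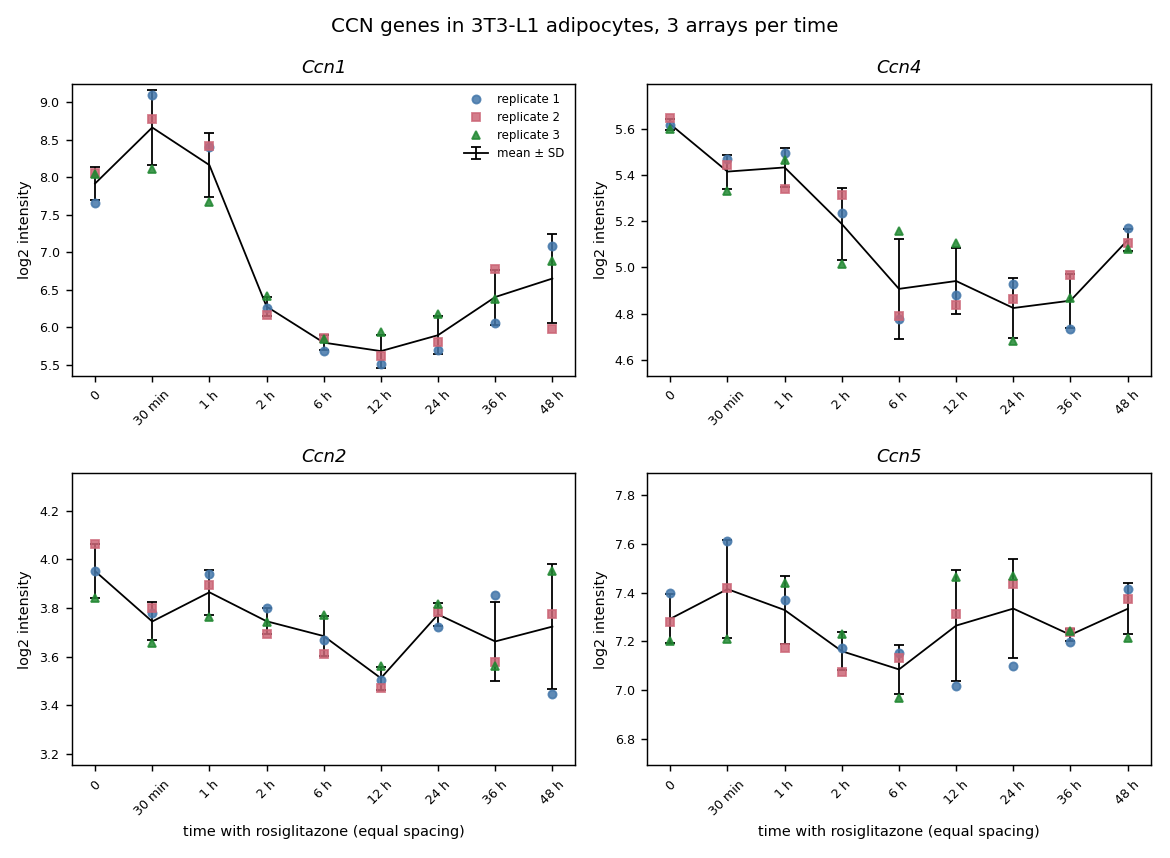
Log2 intensity of Ccn1, Ccn2, Ccn4 and Ccn5 on each of the 27 arrays (points), with lines and bars for the group mean ± SD, by exposure time at equal spacing. Ccn1 arrays drop from between 7.66 and 9.10 in the first 3 groups to between 6.16 and 6.42 at 2 h, while Ccn5 holds between 6.97 and 7.61.

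Amotl2, which scaffolds LATS kinases and binds YAP, was the member that rose. The untreated arrays read 8.30, 8.39 and 8.33. They were 8.86, 8.69 and 8.84 at 30 min and 9.24, 8.98 and 9.13 at 1 h, all above untreated. The rise was 1.37-fold at 30 min (0.46 ± 0.07, adjusted p = 0.00245, limma) and 1.71-fold at 1 h (0.77 ± 0.07, adjusted p = 1.21e-07), its highest level. The 30 min call was lost without replicate 1 (adjusted p = 0.376) or replicate 3 (adjusted p = 0.332) of every group and in a fit of the 6 arrays compared (adjusted p = 0.0908).

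The rise then held through 12 h. Amotl2 read 8.90, 9.02 and 8.93 at 2 h, 8.90, 9.03 and 8.89 at 6 h, and 8.87, 8.86 and 9.02 at 12 h. These 9 arrays all lay above the 3 untreated ones, with differences of 0.61, 0.60 and 0.57 (adjusted p at most 1.43e-06, limma). From 2 h to 6 h no member was called by limma, against 9.16% of all genes, although 4 members had an unadjusted p below 0.05. Amotl2 was not among those 4, at a difference of -0.01.

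Between 6 h and 24 h Amotl2 came down. The arrays at 24 h read 8.59, 8.65 and 8.52, below all 6 h arrays, a fall of 1.28-fold (-0.36 ± 0.07, adjusted p = 0.000803, limma). It was the 1 member of 10 called in that step, against 11.5% of all genes. From 24 h to 48 h no member was called by limma, against 1.46% of all genes, and 2 had an unadjusted p below 0.05. At 36 h it read 8.45, 8.54 and 8.44, and at 48 h 8.55, 8.51 and 8.58. All these arrays were above the untreated ones, by 0.24 ± 0.07 at 24 h (adjusted p = 0.0112, limma). The 36 h difference of 0.13 was not called (adjusted p = 0.188), and that of 0.21 at 48 h was (adjusted p = 0.0291).

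The late calls of Amotl2 were the less stable ones. That at 24 h was lost without any of the 3 replicate numbers (adjusted p = 0.117, 0.0564 and 0.07) and without 24 h replicate 2 (adjusted p = 0.0616). That at 48 h was lost with a further quantile normalization (adjusted p = 0.0624) and in a fit of the compared arrays alone (adjusted p = 0.0609), without replicate 1 or 3 of every group, and without untreated replicate 1 or 3 or 48 h replicate 1 or 3 singly (adjusted p from 0.0641 to 0.0923). The 36 h difference was called with each array centred on its median (0.21, adjusted p = 0.0176). From 6 h to 48 h the fall was -0.39 ± 0.07 (adjusted p = 0.000146, limma), 1 of 3 members called in that step beside Ccn1 and Lats2, against 19.8% of all genes.

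The other angiomotins moved less. Amotl1, which links YAP to tight junctions, was at 9.39 in untreated cells and between 9.19 at 12 h and 9.51 at 30 min elsewhere. The arrays at 12 h, at 9.25, 9.03 and 9.29, lay below the untreated 9.45, 9.41 and 9.32, a difference of -0.20 ± 0.08 with an adjusted p of 0.0645 by limma. That difference was called among genes above the median mean alone (adjusted p = 0.0321), with a further quantile normalization (adjusted p = 0.0388), with a trended and robust variance (adjusted p = 0.0362) and without replicate 3 (adjusted p = 0.0305). Amot, the founding angiomotin, ran from 4.77 at 48 h to 5.12 at 30 min around an untreated mean of 4.88. Its 30 min arrays, at 5.34, 5.02 and 5.0, lay above the untreated arrays, and the difference of 0.24 ± 0.11 was not called (adjusted p = 0.615, limma).

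**Figure D3:**
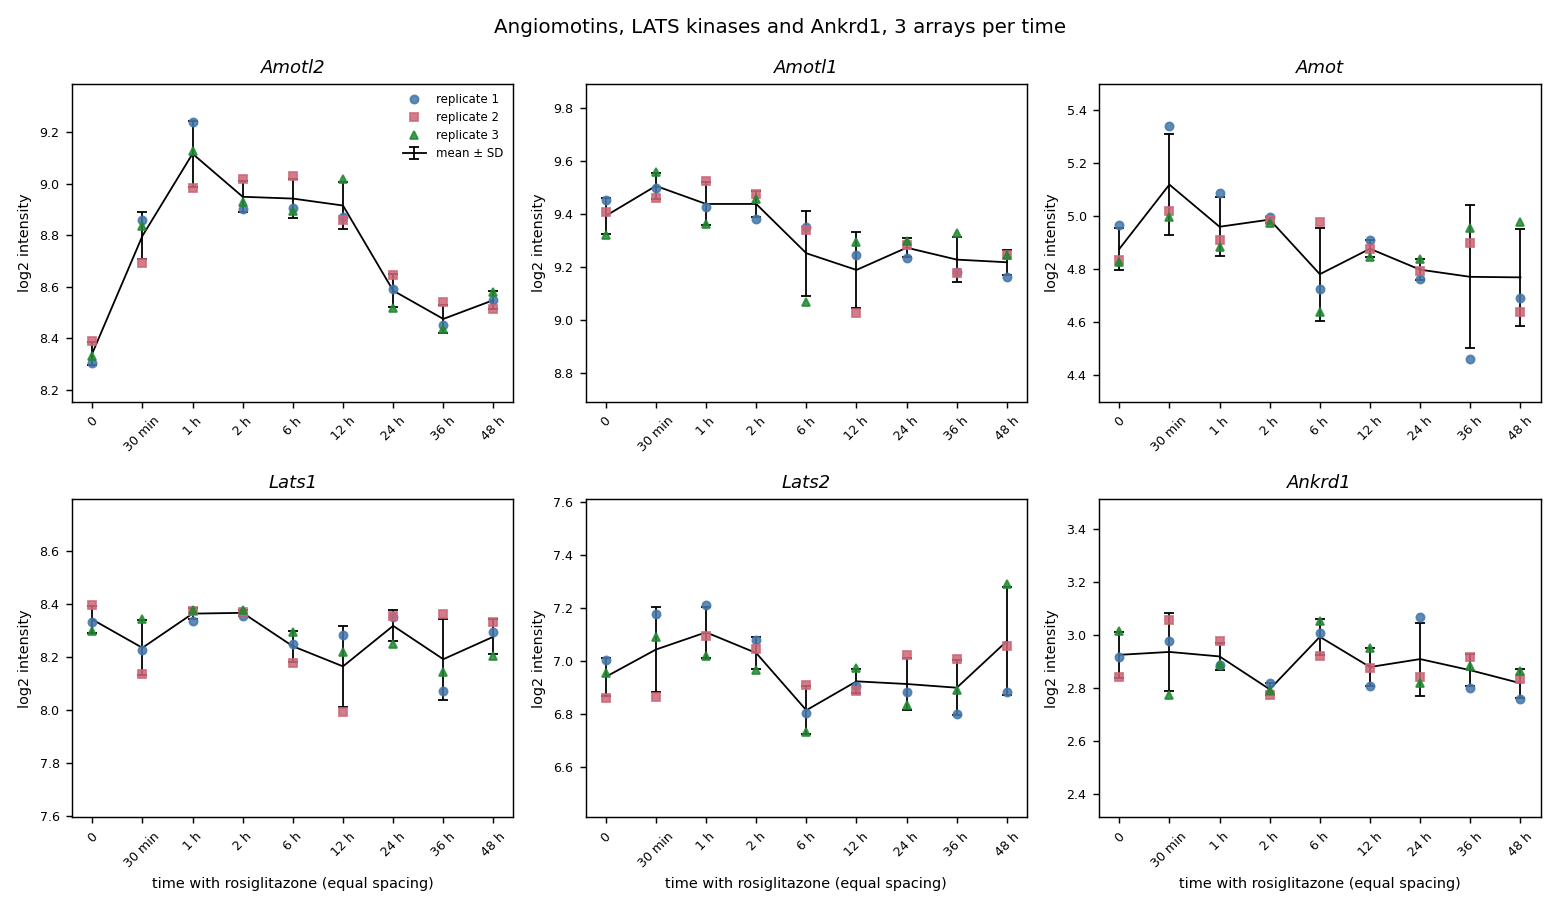
Log2 intensity of Amot, Amotl1, Amotl2, Ankrd1, Lats1 and Lats2 on each of the 27 arrays (points), with lines and bars for the group mean ± SD, by exposure time at equal spacing. Amotl2 lies between 8.69 and 9.24 from 30 min to 12 h against 8.30 to 8.39 in untreated cells, and the group means of the other 5 genes span at most 0.35 over the course.

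The LATS kinases, which phosphorylate YAP and TAZ, were not called against untreated cells at any time. Lats1 stood at 8.33, 8.40 and 8.30 in untreated cells, and its group means lay between 8.17 at 12 h and 8.37 at 2 h. The difference at 12 h was -0.18 ± 0.08 (95% interval -0.33 to -0.02, adjusted p = 0.115, limma), and it was called with a further quantile normalization alone among the fixed settings (-0.21, adjusted p = 0.0452). Lats2, itself a target of YAP in many cells, read 7.01, 6.86 and 6.96 untreated, 6.80, 6.91 and 6.73 at 6 h and 6.88, 7.06 and 7.29 at 48 h. The rise from 6 h to 48 h was 0.26 ± 0.09 (adjusted p = 0.0415, limma), with overlapping arrays. It was lost with the replicate block (adjusted p = 0.0634), in a fit of the compared arrays alone (adjusted p = 0.122), with centring or quantile normalization, without replicate 2 or 3 of every group, and without 6 h replicate 1 or 3 or 48 h replicate 2 or 3 singly (adjusted p from 0.0759 to 0.284).

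Ankrd1 encodes a cardiac ankyrin repeat protein and is a strong YAP target in many cell types. Here its probe set averaged 2.89, below the 25th percentile of gene means at 3.04, and its group means lay between 2.79 at 2 h and 2.99 at 6 h. The untreated arrays read 2.92, 2.84 and 3.02. No difference from untreated was called, the one of greatest size being -0.13 ± 0.07 at 2 h (adjusted p = 0.408, limma). At this level little room is left to see a fall. Between treated times it was called only with arrays centred on their medians. It was then higher at 6 h than at 2 h (0.26, adjusted p = 0.0277, limma) and lower at 48 h than at 6 h (-0.22, adjusted p = 0.0481).

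Within the set, Ccn1 and Ccn4 followed each other over the 27 arrays (Pearson r = 0.81). Ccn1 also followed Amotl1 (r = 0.63) and, less closely, Amot (r = 0.54), and Ccn4 followed Amotl1 (r = 0.54). Amot followed Amotl1 (r = 0.63) and Lats2 (r = 0.62), and Ccn1 and Amotl2 did not run together (r = -0.01). These are descriptions over arrays that share groups and times. Over all genes, the 5 patterns most like that of Ccn1 were those of Egr1 (r = 0.95), an immediate early transcription factor, Sgk1 (0.92), a serum- and glucocorticoid-induced kinase, the matrix proteases Adamts5 (0.91) and Adamts1 (0.91), and Hdac7 (0.91), a histone deacetylase. For Ccn4 they were Adamts5 (0.93), Sertad4 (0.91), the mesenchymal factor Prrx1 (0.90), the prostaglandin receptor Ptgfr (0.90) and P2ry10b (0.90). For Amotl2, chosen for this after its values were seen, they were Slc25a25 (0.88), the insulin receptor substrate Irs2 (0.85), the Wnt receptor Fzd5 (0.85), Rasgef1b (0.80) and Nfyb (0.79).

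The genes upstream and downstream of the members were taken from lists written from general knowledge, with earlier results of these arrays known. Of 21 measured genes of the Hippo core and its inputs, 5 fell and 1 rose at 6 h, and 4 fell and 1 rose at both 24 h and 48 h. Over all genes, 8.18% fell and 8.39% rose at 6 h, 10.5% fell and 10.1% rose at 24 h, and 11.4% fell and 12.6% rose at 48 h. The atypical cadherin Fat4 fell by 0.47 at 6 h and by 0.59 ± 0.12 at 48 h (adjusted p = 0.000506, limma), and Wwc2, a relative of the LATS activator KIBRA, by 0.34 at 6 h and 0.20 at 48 h. The kinase Taok3 fell by 0.47 at 6 h and was not called at 48 h (-0.06). Nf2, which recruits LATS to the membrane, rose by 0.27 at 6 h and 0.34 ± 0.06 at 48 h (adjusted p = 0.000231, limma).

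Of the 10 genes for YAP, TAZ and their nuclear partners, 2 rose and 4 fell at 6 h and 2 rose and 2 fell at 48 h. Among all genes 8.39% rose and 8.18% fell at 6 h, and 12.6% rose and 11.4% fell at 48 h. Yap1 itself was not called at any of the 8 times, with -0.20 at 2 h (adjusted p = 0.0571, limma) and -0.10 ± 0.06 at 48 h (adjusted p = 0.272). Wwtr1, the gene of TAZ, read 8.29, 8.47 and 8.56 untreated and 8.94, 9.0 and 8.87 at 6 h, all higher, a rise of 0.50 ± 0.08 (adjusted p = 5.74e-05, limma). Wwtr1 was called higher at every time from 6 h on. At 48 h the rise of 0.31 was lost without replicate 1 (adjusted p = 0.183) or replicate 2 (adjusted p = 0.0783).

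The DNA-binding partners divided. Tead1 read 8.0, 8.19 and 8.07 untreated against 8.62, 8.59 and 8.54 at 48 h, and it rose by 0.44 at 6 h, 0.58 at 24 h and 0.50 ± 0.07 at 48 h (adjusted p = 3.93e-06, limma). Tead2 fell at 6 h (-0.47) and 24 h (-0.29), Tead4 fell at 6 h (-0.27), and Tead3 was not called at 2 h, 6 h, 24 h or 48 h. Vgll4, which competes with YAP for TEAD, read 10.06, 10.05 and 9.94 untreated, 9.45, 9.53 and 9.59 at 2 h and 9.23, 9.37 and 9.44 at 48 h. It fell by 0.49 ± 0.06 at 2 h (adjusted p = 8.15e-06, limma) and by 0.67 ± 0.06 at 48 h (adjusted p = 1.22e-08), with the groups apart. Vgll3, another TEAD cofactor, fell by 0.41 at 6 h and 0.35 at 48 h, and Vgll1 and Vgll2 were within 0.12 of untreated at 2 h, 6 h, 24 h and 48 h.

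Of 19 further genes known as YAP or TAZ targets in other cells, 3 fell and none rose at 2 h, 9 fell and none rose at 6 h, 10 fell and 1 rose at 24 h, and 10 fell and 2 rose at 48 h. Among all genes 5.91% were called at 2 h, and 8.18% fell and 8.39% rose at 6 h. At 24 h 10.5% of all genes fell and 10.1% rose, and at 48 h 11.4% fell and 12.6% rose. The median change of the 19 was -0.28 at 6 h and -0.38 at 48 h, beside -0.0080 and 0.013 for all genes. Ccdc80, a secreted matrix protein of fat cells, fell by 0.98 ± 0.07 at 48 h (adjusted p = 7.11e-11, limma), and the receptor kinase Axl by 0.80 ± 0.08 (adjusted p = 5.98e-08). F3, tissue factor, fell by 0.42 at 2 h and 0.74 at 48 h. The growth factor gene Tgfb2 fell by 0.73 at 48 h but had risen at 12 h, a call lost without replicate 1. The genes that rose at 48 h, named after their values were seen, were Crim1 (0.33) and Dock5 (0.22). With arrays centred on their medians, the 6 h count became 5 that fell and 2 that rose, and among all genes called at 6 h the share that was higher went from 50.6% to 76.5%.

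**Figure D4:**
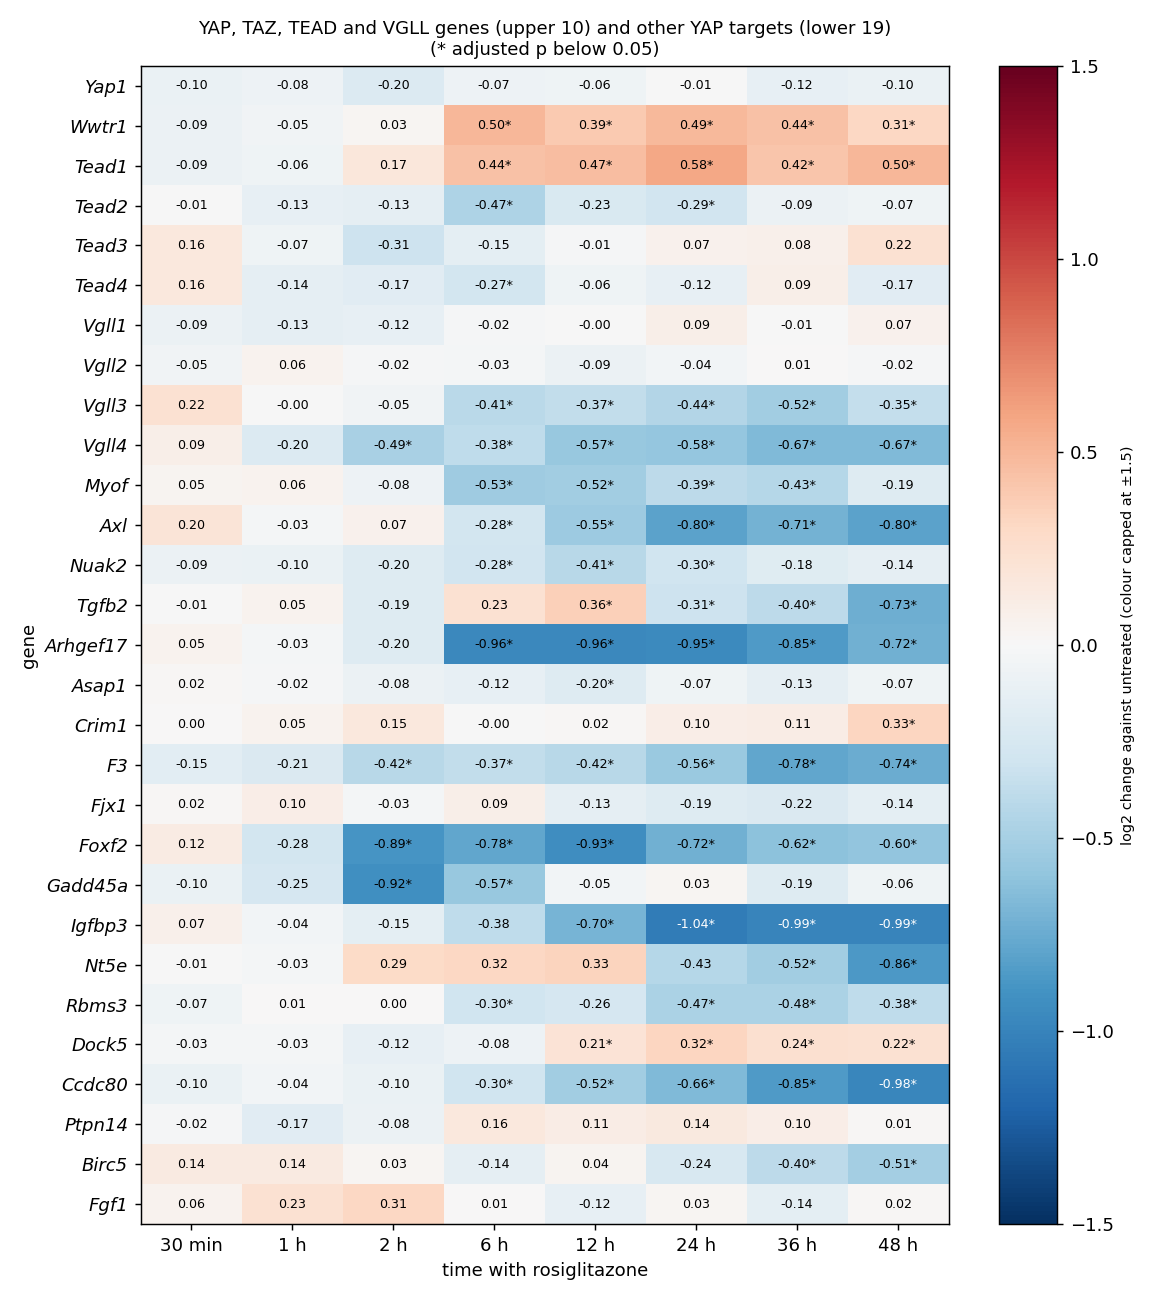
Log2 fold change against untreated cells at each exposure time for the 10 genes of YAP, TAZ, TEAD and VGLL factors (upper rows) and 19 further YAP or TAZ target genes (lower rows). Wwtr1 and Tead1 are positive and Vgll4 negative from 6 h on. At 48 h, 10 of the lower rows are called lower, beside 11.4% of all genes. Asterisks mark adjusted p below 0.05, and colour is capped at 1.5.

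Other lists moved alongside. Of 14 target genes of serum response factor and its actin-controlled cofactors MRTF, 9 fell and 1 rose at 6 h, and 10 fell and none rose at 24 h and 48 h. Among all genes 8.18% fell and 8.39% rose at 6 h, and 10.5% fell at 24 h and 11.4% at 48 h. Acta2, smooth muscle actin, fell by 2.36 ± 0.12 at 48 h (adjusted p = 4.66e-13, limma), the myosin light chain gene Myl9 by 1.57, the actin crosslinker Flna by 1.55 and the calponin Cnn2 by 1.06. At 2 h, 1 of these 14 genes was called, against 5.91% of all genes. Acta2 was then at -0.07. Whether serum response factor had a part in the change of Ccn1 was not tested. The mean log2 level of the list lay between 7.56 and 7.63 in the untreated arrays, 7.51 and 7.53 at 2 h, and 6.85 and 7.0 at 48 h.

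Markers of preadipocytes and fibroblasts, the cells left undifferentiated in such cultures, also fell. Of 11 measured, 1 fell at 2 h, 2 at 6 h and 8 at both 24 h and 48 h, and none rose. S100a4 fell by 1.38 ± 0.11 at 48 h (adjusted p = 1.45e-09, limma), Dlk1 by 0.73, Fn1 by 0.56 and Pdgfra by 0.58. The summed intensity of the 11 ran from 10800.5 to 11392.7 in untreated arrays, 10835.5 to 11185.2 at 2 h and 8551.6 to 8901.7 at 48 h, and the part of this in the changes of Ccn1 and Ccn4 was not tested. At 2 h, when Ccn1 and Ccn4 were lower, that sum overlapped the untreated arrays, but the mean log2 level of the 11, from 8.82 to 8.89, lay wholly below the untreated 8.90 to 8.94. Of 12 adipocyte markers 5 rose and 2 fell at 6 h, and 1 rose (Cd36, 0.43) and 3 fell at 48 h, including Lep (-1.73) and Pparg (-0.30), while Cebpa stood at 0.04. The shares of all genes that rose were 8.39% at 6 h and 12.6% at 48 h, and those that fell 8.18% and 11.4%. Of 5 macrophage markers Cd68 alone was called, lower at 6 h and 12 h, and of 5 endothelial markers Pecam1 alone, higher at 24 h. In either direction, 16.6% of all genes were called at 6 h, 18.9% at 12 h and 20.7% at 24 h.

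**Figure D5:**
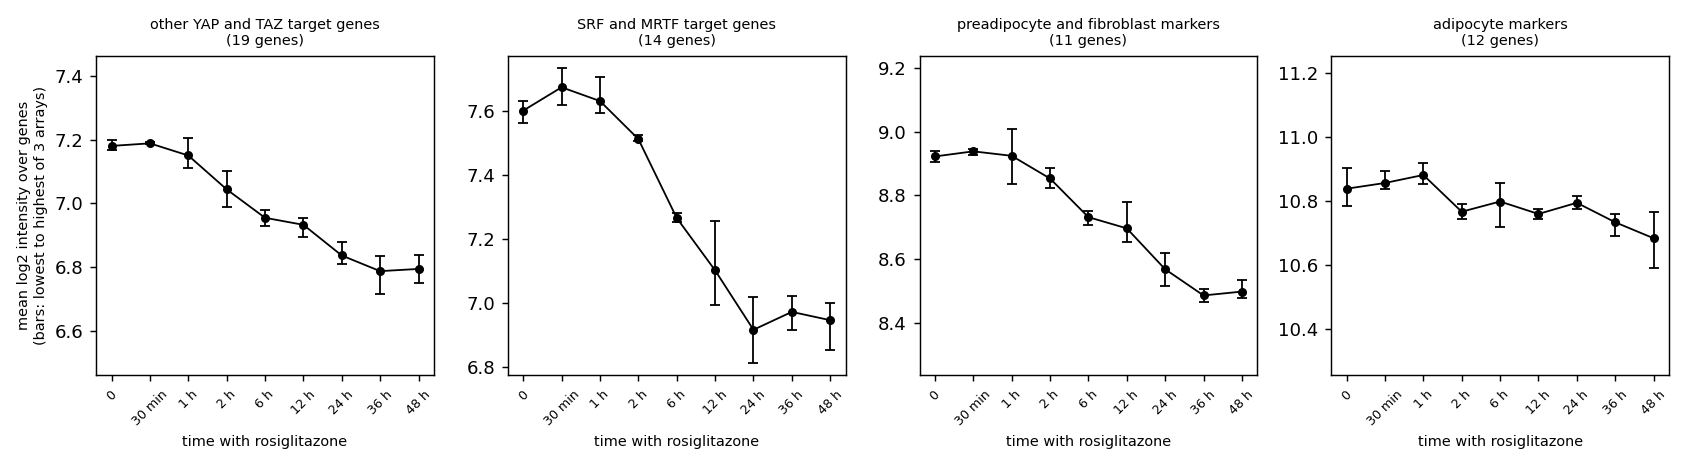
Mean log2 intensity of 4 gene lists by exposure time, with bars from the lowest to the highest of the 3 arrays of a group. The list of serum response factor targets falls from 7.60 in untreated cells to 6.95 at 48 h, and the preadipocyte and fibroblast markers from 8.92 to 8.50.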

How the data were processed

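The 27 arrays (Affymetrix Mouse Gene 1.1 ST) were deposited as log2 intensities per probe set by the authors, and the submitters' processing notes name Partek and RMA (background correction, normalization and probe summary) without versions. Apart from the promoter windows on GRCm38.p6, no gene coordinates are printed, because the build behind the probe annotation is not given in the sources used here. Of 28815 probe sets, 21153 carried 1 gene symbol, 1867 several and 5795 none, and the set with the highest mean was kept for each of the 1367 genes with several, which left 18781 genes. Dim genes were not filtered out.

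A limma model (3.58.1, under R 4.3.3) of the 9 group means was fitted to all 27 arrays with lmFit and eBayes, tests were two-sided, and p-values were adjusted by Benjamini-Hochberg over all genes. The method was tested on simulated data. Tables and plots used Python 3.11.15, pandas 2.3.3, numpy 2.4.6 and matplotlib 3.10.9. Arrays give no counts, and their number limits the precision.

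Members and lists were chosen with earlier results of these data known. Named were all members and, per further list, up to 4 genes with the smallest F-test p, all genes for YAP, TAZ and nuclear partners, and the 5 genes most correlated with the members of widest range. Stk3, Rassf1, Areg and Ly6a were not analysed here. Alternatives were a replicate block, genes above the median mean, averaging the probe sets of a gene, centring, quantile normalization, a trended and robust variance, fits of only the arrays compared, leaving out each replicate number, and, added after seeing the data, leaving out each array. Promoter motifs were matched in the RefSeq windows as letters.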

Additional observations from a re-analysis of the deposited data

Results flagged for a closer look

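Direct comparisons between treated times differed for 3 members by limma, each value being a log2 difference of the later from the earlier time. Ccn1 differed by -2.38 between 2 h and 30 min, so its difference from untreated cells was not the same at those times. It differed by 0.85 between 48 h and 6 h, a call lost without replicate 1 or replicate 3 of every group (adjusted p = 0.188 and 0.0885, limma). Amotl2 differed by -0.36 between 24 h and 6 h and by -0.39 between 48 h and 6 h. Lats2 differed by 0.26 between 48 h and 6 h, with overlapping arrays. That call was lost with the replicate block, centring or quantile normalization (adjusted p = 0.0634, 0.0598 and 0.0968, limma).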

How the results depend on the processing

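Called differences of the members kept their direction and their call in 170 of 180 values under the fixed alternatives, 61 of 78 without a replicate number and 685 of 702 without a single array, and none reversed. Most single arrays left out belong to neither group of a comparison. They alter only the shared estimate of the spread, so the last count says less about stability. Followed differences of the members that were not called became called in 10 of 176, 6 of 78 and 13 of 702 such values. Only 26 of the differences not called were followed, so these are not rates for all of them. The difference of Ccn1 at 1 h, not called, went from 0.25 to -0.0065 without replicate 1 and 0.56 without replicate 3, and the cause was not tested. In the fit of only the arrays compared, the number of members called at 30 min was 0, and from 2 h to 6 h it was 1. That member was Ccn1 (-0.48). The count was also 1 in that step in 2 other settings, but the member differed. It was Ccn4 among genes above the median mean (-0.28) and Ankrd1 with each array centred on its median (0.26). Without 1 array or replicate number, the counts ran from 0 to 1 at 30 min, 0 to 1 from 2 h to 6 h, 1 to 2 from 6 h to 24 h, 0 to 1 from 24 h to 48 h, 1 to 3 from 6 h to 48 h, 2 to 3 at 2 h, 24 h, 36 h and 48 h, 3 to 4 at 6 h, 3 to 5 at 12 h, and 3 to 6 over the course.

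Replicate numbers recur in every group. Deviations from the group means of same-numbered arrays correlated with a median r of -0.13 over 108 pairs (3 pairs above 0.1). Between arrays of different numbers the median r was 0.05. Deviations in a group of 3 sum to 0, so these medians are linked. With 0 of 27 arrays correlated best with their own number, no pairing by number was seen, but this check cannot show that the arrays are unpaired. Whether arrays share a structure across the numbers was not tested. With replicate number as a block, 2 members in place of 3 were called from 6 h to 48 h and 4 in place of 5 over the course, and 1, 1, 3, 3, 4, 3, 3 and 3 at the 8 times against untreated.

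Centring moved the share of rising genes among all called to 76.5% at 6 h, 70.4% at 24 h and 65.9% at 48 h, from 50.6%, 49% and 52.5%. Dim probe sets limit what Ankrd1, Ccn2 and Ccn3 can show.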
